A study of Bos taurus and Sus scrofa with 6 samples.

Results

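Pig lymphocytes of the prepubertal testis were taken from the raw single-cell counts of 3 pigs by the genes that the cells held. A cell barcode was kept when 8 lymphocyte genes (CCL5, CD3D, CD3E, CD3G, CD2, NKG7, LCK and IL7R) together had at least 3 unique molecular identifiers (UMIs, each standing for a captured mRNA molecule) over at least 2 of these genes, and when CD2 or a CD3 gene had a UMI. Cells with a UMI in at least 2 genes of a Sertoli group (FSHR, AMH, CLDN11), a Leydig group (CYP17A1, CYP11A1, STAR) or a macrophage group (C1QA, C1QB, C1QC) were dropped. The rule found 139 lymphocytes among 9457 pig cells, and the cattle and pig libraries together held 27966 cells. The cells were thus chosen by measured values, the UMI counts of these 17 genes, so those values are given below as a description, without a test, as is every difference between these cells and the other pig cells.

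The study profiled testicular cells of prepubertal pigs and cattle as part of a search for genes of male fertility that mammals share. Used here are 3 mixed breed pigs aged 3 months and 3 Holstein cattle aged 4.5 months, with no treatment and no altered gene in any group, and with 1 library per animal. Testes were removed by castration and digested with trypsin-EDTA and then with collagenase IV and DNase I. Droplet capture used 10x Genomics version 2 chemistry with some 8000 live cells per animal, and the libraries were sequenced together on a single lane. In either species 2 libraries carry an identical testis number in the labels although their animal tags differ, and each library was counted as an animal.

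T lymphocytes recognize antigen through a T cell receptor that signals through the CD3 chains and the kinases LCK and ZAP70. CD8 T cells and natural killer (NK) cells kill target cells by releasing granules that hold perforin, granzymes and granulysin, whereas CD4 T cells mainly direct other immune cells through cytokines. In the testis, lymphocytes and macrophages reside in the interstitium outside the seminiferous tubules, and the organ is known as a site of immune privilege where germ cell antigens are tolerated. Pigs are known among mammals for a large pool of gamma delta T cells and for mature T cells that carry both CD4 and CD8.

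The cells were spread unevenly over the animals. Pig 1 gave 7 lymphocytes of 3248 cells, pig 2 gave 26 of 3932 and pig 3 gave 106 of 2277. The share was therefore 0.216% in pig 1 (95% exact binomial interval 0.0867 to 0.444), 0.661% in pig 2 (0.432 to 0.967) and 4.66% in pig 3 (3.83 to 5.60). These intervals, like all others here, cover counting error only. Over animals the mean was 1.84% ± 2.44 (SD, n = 3). Pig 3 contributed 76.3% of the lymphocytes and 82.2% of their UMIs, and 33 cells remained without it. The interval of pig 3 lay apart from the others, while those of pigs 1 and 2 overlapped, and any pooled count below is mostly a count in pig 3.

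Depth also differed between the pigs. A cell had to hold at least 696 UMIs in pig 1, 2444 in pig 2 and 3457 in pig 3, the minimum that the cell caller of Cell Ranger 2 would set. The median lymphocyte held 1351 UMIs in pig 1, 4067 in pig 2 and 4881.5 in pig 3, against 895, 3897.5 and 6035 in the other cells of the same pigs. Summed over lymphocytes this gave 9794, 135405 and 670279 UMIs. A gene with no UMI could therefore still be present at up to 306 CPM (the count scaled to a common library total) in pig 1, 22.2 CPM in pig 2 and 4.48 CPM in pig 3, the level of 3 counts. Pig 1 was too shallow for most single genes, and folds are given for pigs 2 and 3, which had at least 10 lymphocytes each. Mitochondrial genes took a median of 0.919%, 2.46% and 1.95% of the UMIs of lymphocytes and 1.195%, 2.25% and 1.88% of those of other cells in pigs 1, 2 and 3.

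**Figure D1:**
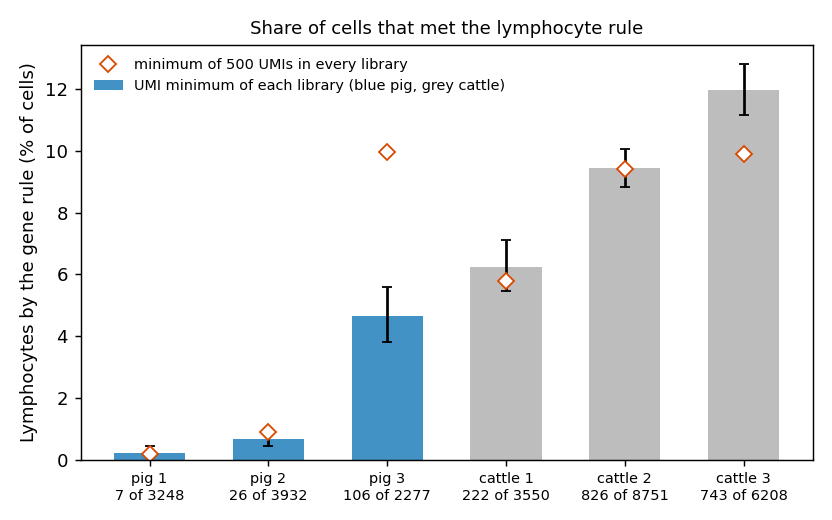
Percent of cells that met the lymphocyte rule in each of 3 pig (blue) and 3 cattle (grey) libraries, with 95% exact binomial intervals as error bars and the number of lymphocytes of cells under each bar. White diamonds give the percent with a minimum of 500 UMIs for every library, which lies at 9.96% in pig 3, above the 3 cattle libraries at 5.78%, 9.42% and 9.90%.

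The 4 genes that mark the label are rule genes, so their presence follows from the choice of the cells and is no check of the label. CD3E, a chain of the T cell receptor complex on chromosome 9 (45619730 to 45633972, Sscrofa11.1), was found in 82 of 139 lymphocytes, with 4, 33 and 215 UMIs in pigs 1, 2 and 3. CD2, an adhesion receptor of T and NK cells on chromosome 4 (103963802 to 103976971), was found in 99, with 7, 24 and 175 UMIs. CCL5, a chemokine stored and released by cytotoxic lymphocytes on chromosome 12 (39652731 to 39659121), was found in 88, with 17, 286 and 894 UMIs. NKG7, a cytotoxic granule protein on chromosome 6 (58496089 to 58497827), was found in 79, with 2, 20 and 187 UMIs. CCL5 was the most abundant gene of the rule, at 1736, 2112 and 1334 CPM. CD3G was found in 85, LCK in 66 and CD3D in 49 of the cells. The receptor of interleukin 7, IL7R, which marks naive and memory T cells, had 3 UMIs in all.

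The rule lay close to many cells on both sides. Before the drop step 168 cells passed, and 29 were dropped, 25 of them by the macrophage group, 5 by the Leydig group, 1 of which fell under both, and 0 by the Sertoli group. Of the lymphocytes kept, 19 had exactly 3 UMIs in the 8 genes and 28 had exactly 2 of the genes. Just outside, 36 cells had 2 UMIs over 2 genes, 4 had at least 3 UMIs in a single gene and 21 had enough UMIs but neither CD2 nor a CD3 gene. Doublets were scored but not removed, and 2 of the 139 cells, both from pig 3, were among the highest scores. The pairs of pig libraries shared 38 cell barcodes, and 1 lymphocyte carried a barcode that was also a cell of another pig library.

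Genes of other cell types were present in most of these cells. Of the 139 lymphocytes, 108 (77.7%) held UMIs in at least 2 genes of a list for some other testicular or blood cell type, red blood cells aside. The stroma and peritubular myoid list (collagens, decorin, lumican and contractile genes) accounted for 65 of the cells, the dendritic cell list for 33 and the macrophage list for 26. The stroma list stood at 1588 CPM in the lymphocytes of pig 2 and 2542 CPM in those of pig 3, against 1951 and 1823 CPM in the other cells, and had no UMI in the 7 lymphocytes of pig 1, against 452 CPM in its other cells. COL1A1, the collagen chain with the most UMIs over the other cells of pig 3, stood at 295 and 521 CPM in the lymphocytes of pigs 2 and 3 and 302 and 432 CPM in other cells. Single genes of the list differed more, with log2 ratios of lymphocytes over other cells of -0.26 and 1.17 for the smooth muscle actin gene ACTA2 and -0.38 and 1.197 for TCF21, a stromal transcription factor, in pigs 2 and 3. The Sertoli list outside the rule stood at 1019 CPM in pig 2, against 1889 CPM in other cells, and at 49.2 CPM in pig 3, against 305 CPM. The word lymphocyte therefore stands here for a cell that met the rule, and how much of each profile came from free RNA or from a second cell in the droplet was not tested.

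Compared with the other cells of the same pig, 237 of 7405 genes (3.20%) were at least 2-fold higher in the lymphocytes of both pig 2 and pig 3, with 10 CPM added to both sides, and 29 (0.392%) were at least 2-fold lower. These shares describe the choice of the cells and carry no test. Of the 237 genes, 230 were outside the rule, and 28 had no symbol in the gene table. The median gene reached 0.807-fold in the pig where its fold was smaller.

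TRAC, the constant region of the T cell receptor alpha chain, led the named genes outside the rule. It stood at 1123, 414 and 536 CPM in pigs 1, 2 and 3, against 4.25, 2.38 and 6.31 CPM in other cells, and was 34.2-fold and 33.5-fold higher in pigs 2 and 3. Only the gene without a symbol, ENSSSCG00000037885, lay higher in this order, at 45.7-fold and 36.7-fold. Next outside the rule came 2 granule genes, GNLY and GZMB, and CST7, an inhibitor of lysosomal proteases in cytotoxic cells, which was 16.3-fold and 13.5-fold higher. CTSW, a protease of T and NK cells, was 18.9-fold and 11.2-fold higher, and CORO1A, an actin regulator of leukocytes, 22.0-fold and 10.5-fold. The other leading genes outside the rule were CD8A, PTPRCAP (a partner of CD45), CD5 (an inhibitory receptor of T cells), the GTPase RAC2, and the inhibitory membrane proteins SIT1 and PVRIG. All of these are genes of lymphocytes or of leukocytes in general.

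Of the 10 lowest genes, 4 were genes of macrophages or of the steroid-producing Leydig cells. C1QB and C1QA, complement genes of macrophages, and CYP17A1, an enzyme of androgen synthesis, were part of the drop step. INSL3, the peptide hormone of Leydig cells, was not used by the rule and stood at 715, 170 and 230 CPM in the lymphocytes of pigs 1, 2 and 3, against 6387, 707 and 893 CPM in other cells, a fold of 0.25 in pig 2 and 0.27 in pig 3. The other 6 were GLB1L2, CCDC42, ENSSSCG00000036983, ENSSSCG00000012733 and 2 further genes without a symbol.

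The T cell receptor and its signalling chain were present from the receptor to its adaptors. Of 21 genes of this list with enough UMIs, 18 were at least 2-fold higher in both pigs, or 13 of 16 outside the rule. Over all genes the share was 3.20%. The median of these 16 genes was 3.002-fold in the pig with the smaller fold. CD247, the zeta chain of the receptor complex, stood at 111 and 109 CPM in the lymphocytes of pigs 2 and 3, against 17.2 and 26.0 CPM in other cells. ZAP70, the kinase that binds it, stood at 29.5 and 64.2 CPM against 9.48 and 16.4 CPM, and the adaptor LAT at 118 and 119 CPM against 21.0 and 25.3 CPM. PTPRC, which encodes the pan-leukocyte phosphatase CD45, stood at 715, 443 and 492 CPM in pigs 1, 2 and 3, against 11.6, 12.02 and 83.6 CPM. Lymphocytes were above other cells for each of these genes in pigs 2 and 3. FYN, another kinase of the receptor, reached 1.87-fold and 1.90-fold, the adaptor LCP2 1.62-fold and 1.94-fold, and UBASH3A, a negative regulator, 1.70-fold and 2.67-fold.

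Receptor genes divided the cells only in part. A UMI of any CD3 gene was found in 106 lymphocytes (76.3%), and the other 33, of which 29 were from pig 3, entered through CD2. No UMI of a CD3 gene was found in 239 pig cells marked by at least 2 of the Sertoli genes. Of these, 203 were in pig 2 and 11 in pig 3, with a median depth of 4415 and 5892 UMIs. Among cells marked likewise by the macrophage or the Leydig genes, 16 of 433 (3.70%) and 10 of 1095 (0.913%) held a CD3 UMI. The marked groups leave out cells that met the lymphocyte gene rule, 25 by the macrophage and 5 by the Leydig genes. Their low shares of lymphocyte genes, here and below, therefore follow in part from that choice. TRAC was found in 83 lymphocytes and in 3 of the 239 Sertoli-marked, 14 of the 433 macrophage-marked and 12 of the 1095 Leydig-marked cells. TRDC, the constant region of the delta chain that marks gamma delta T cells, was found in 9 lymphocytes, 3 in pig 2 and 6 in pig 3. It was found in 0 of 239 Sertoli-marked, 0 of 433 macrophage-marked and 3 of 1095 Leydig-marked cells. TRAC and TRDC were held together by 2 lymphocytes. A further 49 cells (35.3%) held neither chain. Of these, 26 entered through CD2 and lacked all CD3 genes as well, 24 of them in pig 3. At these depths the absence of a UMI does not show that a chain was not expressed.

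CD8 was found more often than CD4. CD8A or CD8B, the chains of the coreceptor of cytotoxic T cells, had a UMI in 1, 6 and 38 lymphocytes of pigs 1, 2 and 3, or 45 in all (32.4%), of which 37 also held at least 2 cytotoxic genes. CD8A (chromosome 3, 57999228 to 58029768) alone stood at 81.2 and 107 CPM in pigs 2 and 3, against 0.558 and 2.28 CPM in other cells, an 8.64-fold and 9.56-fold difference. CD4 (chromosome 5, 63892129 to 63918547) had a UMI in 1, 1 and 18 cells, or 20 in all (14.4%). It stood at 7.39 and 50.7 CPM in pigs 2 and 3, against 1.83 and 12.9 CPM in other cells, and 6.05% of the macrophage-marked cells of pig 3, whose median depth was 6944 UMIs, had a UMI of it, against 17.0% of its lymphocytes. In pig 2 the CD4 share was 3.85% of lymphocytes, a single cell, against 5.13% of macrophage-marked cells and 0.640% of all other cells. Both CD4 and CD8 were found in 11 cells, all in pig 3. Neither was found in 85 cells (61.2%).

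**Figure D2:**
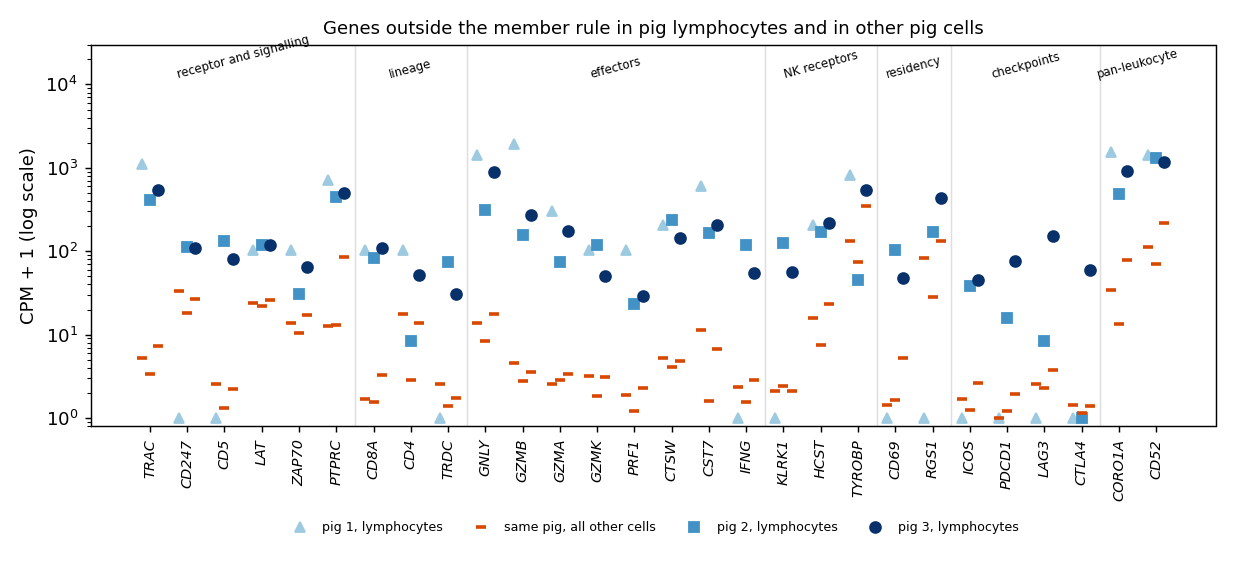
Level of 28 genes outside the member rule, as CPM plus 1 on a log scale, in the lymphocytes of pig 1 (triangles), pig 2 (squares) and pig 3 (circles) and in all other cells of the same pig (orange bars). A marker at 1 means no UMI, which in pig 1, with 9794 lymphocyte UMIs, allows up to 306 CPM.

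Most genes of the cytotoxic program were higher in the lymphocytes. Of 15 genes with enough UMIs, 14 were at least 2-fold higher in both pigs, or 12 of 13 outside the rule. Over all genes the share was 3.20%. The median of these 13 genes was 4.88-fold in the pig with the smaller fold. LAMP1, a lysosomal membrane protein of all cells, was the exception. GNLY (granulysin, chromosome 3, 59067327 to 59072034), which makes pores in microbial membranes, stood at 1429, 310 and 882 CPM in pigs 1, 2 and 3, against 13.0, 7.40 and 16.9 CPM in other cells. GZMB (granzyme B, chromosome 7, 74705499 to 74708781), a protease that starts death of the target cell, stood at 1940, 155 and 270 CPM, against 3.58, 1.77 and 2.57 CPM. GZMA, a granzyme counted at 2 neighbouring loci that carry the symbol, stood at 306, 73.9 and 173 CPM, against 1.56, 1.88 and 2.38 CPM. For each of the 3 genes, lymphocytes of every pig were above the other cells of every pig. The pore protein perforin, PRF1, was scarcer, with 1, 3 and 19 UMIs. IFNG, which encodes interferon gamma, had 0, 16 and 36 UMIs, or 118 and 53.7 CPM in pigs 2 and 3, and the chemokine XCL1 had 0, 14 and 111 UMIs.

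Some of these transcripts were concentrated in few cells. At least 2 of 9 effector genes (GNLY, GZMA, GZMB, GZMK, GZMM, PRF1, CTSW, CST7 and FASLG) were found in 72 lymphocytes (51.8%), 5, 14 and 53 in pigs 1, 2 and 3, and none in 35. In the Sertoli-marked cells, 0 of 239 held 2 of them, which allows a share of cells with such UMIs of up to 1.26% (3 counts of 239). That count sets no limit on cells that express the genes. At least 2 were found in 12 of 433 macrophage-marked cells (2.77%) and in 8 of 1095 Leydig-marked cells (0.731%). No marked group holds a cell that met the gene rule, so these shares follow in part from the choice. GNLY was found in 28 lymphocytes, and in pig 3 its 591 UMIs came from 22 cells, 151 of them from a single cell. In pig 2, its 42 UMIs came from 3 cells. GZMB in pig 3 was spread over 33 cells and CTSW over 38, so GNLY had more UMIs in fewer cells. GNLY was also found in 37 of 347 macrophage-marked cells of pig 3 (10.7%), which are deeper, with a median of 6944 UMIs, and in 1 of 239 Sertoli-marked cells.

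The NK list was mixed. KLRK1, the activating receptor NKG2D of NK and CD8 T cells, had 0, 17 and 37 UMIs in pigs 1, 2 and 3 and was 11.9-fold and 5.87-fold higher than in other cells. Its adaptor HCST stood at 204, 170 and 215 CPM, against 14.8, 6.44 and 22.6 CPM, and IL2RB, a chain of the interleukin 2 and 15 receptors, was 5.19-fold and 6.26-fold higher. These 3 genes were the ones of 6 that passed 2-fold in both pigs, where 3.20% of all genes did. TYROBP and FCER1G, adaptors that NK cells share with macrophages and other myeloid cells, stood at 44.3 and 14.8 CPM in pig 2, below the 74.3 and 46.4 CPM of other cells, and at 548 and 618 CPM in pig 3, above 351 and 353 CPM. KLRD1, the NK receptor CD94, and KLRF1 had no UMI in any of the 139 cells. KLRD1 stood at 0.0485 CPM in the other cells of pig 3 and had no UMI in those of pigs 1 and 2, so its counts cannot tell NK cells from T cells in these libraries.

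Among transcription factors 5 of 15 passed 2-fold in both pigs and 1 was lower, against 3.20% and 0.392% of all genes. Those higher were TBX21 and EOMES, which direct cytotoxic differentiation, ZNF683, known from tissue-resident T cells, the lymphocyte factor IKZF3 and ETS1. TBX21 stood at 14.8 and 22.4 CPM in pigs 2 and 3, against 0.355 and 1.07 CPM. Its pig 2 value lay under 22.2 CPM, the level of 3 counts there, so few UMIs carry it. ETS1 stood at 199 and 212 CPM, against 63.8 and 75.7 CPM. The gene that was lower was ID3, an inhibitor of DNA binding that acts in many cell types, at 59.1 and 44.8 CPM against 144 and 178 CPM. TCF7 and LEF1, factors of naive T cells, had 24 and 20 UMIs in all and stood within 2-fold of other cells, and BCL11B, a T cell factor, had no UMI.

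The genes of naive cells were few, and those of tissue retention were present. CCR7, the receptor for homing to lymph nodes, had 17 UMIs, all in pig 3. CD27 had 1 UMI, but it was hardly counted in other pig cells either, so its count is not informative. Its log2 ratios of lymphocytes over other cells, with 10 CPM added, were -0.011 and 0.00 in pigs 2 and 3. In cattle lymphocytes, taken by the same rule, it stood at 44.8, 96.6 and 98.3 CPM. Of 13 trafficking genes with enough UMIs, 5 passed 2-fold in both pigs, where 3.20% of all genes did. They included the chemokine receptors CXCR3 and CXCR4 and the integrin chains ITGB2 and ITGB7. CXCR4 stood at 214 and 148 CPM in pigs 2 and 3, against 35.4 and 39.2 CPM. CD69, which keeps lymphocytes in tissue and rises after activation, had 0, 14 and 31 UMIs in pigs 1, 2 and 3 and was 10.6-fold and 3.93-fold higher. RGS1, a regulator of chemokine signalling, had 0, 23 and 290 UMIs and was 4.82-fold and 3.14-fold higher. ITGAE, the integrin CD103 of epithelial T cells, had 21 UMIs and stood within 2-fold of other cells.

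Checkpoint receptors were counted mainly in pig 3. LAG3 (chromosome 5, 63929669 to 63935054), an inhibitory receptor that binds class II molecules, had 0, 1 and 102 UMIs in pigs 1, 2 and 3. PDCD1 (chromosome 15, 140337353 to 140347493), which encodes PD-1, had 0, 2 and 51 UMIs. CTLA4 (chromosome 15, 107283081 to 107288041), an inhibitory receptor of activated and regulatory T cells, had 0, 0 and 39 UMIs. The absence of LAG3 in pig 1 is not informative at its depth, whereas pig 2 stood at 7.39 CPM and pig 3 at 152 CPM. Cells with a UMI were 27 for LAG3, 21 for PDCD1 and 19 for CTLA4, of which 26, 19 and 19 were in pig 3, against 37, 17 and 8 of 2171 other cells there. ICOS, a costimulatory receptor, was present in both pigs at 36.9 and 44.8 CPM, against 0.254 and 1.60 CPM. IKZF2, PDCD1, ICOS and the cytokine IL10 were the 4 of 8 genes that passed 2-fold in both, against 3.20% of all genes. In pig 2 IL10 rested on 2 UMIs of a single cell and PDCD1 on 2 UMIs, and in pig 3 a single cell held 21 of the 48 IL10 UMIs. FOXP3, which defines regulatory T cells, had a single UMI, and IL2RA had 3.

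Genes shared by all leukocytes were high. Of 13 leukocyte genes, 12 passed 2-fold in both pigs, with a median of 4.45-fold, and CD37 missed it in pig 3. CD52, a surface peptide of lymphocytes, stood at 1429, 1322 and 1162 CPM in pigs 1, 2 and 3, against 111, 70.0 and 214 CPM in other cells. Of 10 immediate early genes and 10 division genes 0 passed, with medians of 0.768-fold and 1.21-fold, where 3.20% of all genes did, so 0 of 10 is near the background. FOS, the immediate early gene with the most UMIs in these cells, stood at 2142 and 838 CPM in pigs 2 and 3, against 2736 and 1017 CPM. MKI67 or TOP2A, genes of dividing cells, was found in 36 lymphocytes (25.9%), 32 of them in pig 3, where 30.2% held a UMI against 31.3% of other cells. In pig 2 the shares were 11.5% (3 cells) and 6.94%, or 5.001% and 1.52% after thinning to 500 UMIs per cell. The division list as a whole stood at 1521 CPM in the lymphocytes of pig 2, against 871 CPM in other cells, and at 1704 against 1677 CPM in pig 3.

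Of 8 antigen presentation genes 2 passed 2-fold in both pigs, where 3.20% of all genes did. Their median was 1.45-fold in the pig with the smaller fold, against 0.807-fold over all genes. The 2 genes were TAP1, the peptide transporter of class I presentation, and NLRC5, the class I transactivator. CIITA, the class II transactivator, stood at 0.722-fold in pig 2, where it had no UMI, and 1.30-fold in pig 3. B2M, the invariant chain of class I molecules, stood at 6330, 3604 and 7009 CPM in pigs 1, 2 and 3, against 1208, 1621 and 4229 CPM. CD74, the class II invariant chain of antigen-presenting cells, stood at 3063, 1189 and 4367 CPM, against 762, 648 and 1901 CPM. SLA-DQB1, a class II chain, stood at 332 and 1763 CPM in pigs 2 and 3, against 268 and 622 CPM. CD74 and SLA-DQB1 were thus higher in the lymphocytes of pig 3 than in those of pig 2, and so they were in the other cells. The log2 ratio of lymphocytes over other cells for CD74 was 2.02, 0.88 and 1.197 in pigs 1, 2 and 3. Macrophage genes outside the rule stood at 1305 CPM in the lymphocytes of pig 3, against 464 CPM in its other cells.

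Much of that macrophage sum of 875 UMIs came from a single cell. LYZ, lysozyme, was its most abundant gene, with 7, 0 and 535 UMIs in pigs 1, 2 and 3, and 389 of the 535 (72.7%) were in 1 of 106 cells. AIF1, an actin-binding protein of macrophages, had 2, 0 and 237 UMIs. Each of the 12 macrophage genes had at least 1 UMI in pig 3, whereas pig 2 held none of C1QA, C1QB, C1QC, AIF1, CD163, LYZ and MS4A7. JCHAIN, the joining chain of secreted antibodies, was as uneven, with 432 of its 610 UMIs in pig 3 (70.8%) in a single cell. Of the other genes of the B and plasma cell list, CD79A had no UMI, MS4A1 had 3, CD79B had 7, EBF1 had 13, FCRLA had 23 and VPREB1 had 57. At least 2 genes of the list were found in 11 of the 106 cells of pig 3 and in 0 of those of pigs 1 and 2. The part of these cells in the pig 3 values was not tested.

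Many more barcodes met the gene rule below the UMI minimum of their library. The deposited pig tables hold 37948 barcodes with at least 500 UMIs, and 28491 of them lay under the minimum. Of these, 955 passed the keep and drop steps, 5 of 2972 in pig 1, 179 of 18988 in pig 2 and 771 of 6531 in pig 3, or 0.168%, 0.943% and 11.8%. The median depth of these 955 barcodes was 612, 1011 and 1177 UMIs in pigs 1, 2 and 3. Pig 3 held 80.7% of the 955. With a minimum of 500 UMIs the lymphocytes thus numbered 1094, 7.87 times the 139 above, and the order of the pigs was the same above and below the minimum.

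The shallow barcodes had higher levels of the cytotoxic genes. GNLY stood at 5339 CPM in the barcodes under the minimum of pig 2 and 6144 CPM in pig 3, against 310 and 882 CPM in the lymphocytes above it. CTSW stood at 1019 and 937 CPM against 236 and 145 CPM, IFNG at 439 and 431 CPM against 118 and 53.7 CPM, and TRAC at 1398 and 1572 CPM against 414 and 536 CPM. Summed over the cytotoxic list outside the rule, the ratio was 5.39 in pig 2 and 3.73 in pig 3. A barcode of low depth had to hold 3 UMIs of the rule genes all the same, so a higher level of those genes, and of any gene expressed in the same cells, follows in part from the rule.

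Shares of barcodes with a UMI were also set at a common depth, by thinning each barcode to 500 UMIs. The rule still acts on these shares, since thinning does not undo the choice of shallow barcodes by 3 UMIs of the rule genes, so they are a description. GNLY, which is outside the rule, would be seen in 27.5% of the shallow barcodes and 8.34% of the lymphocytes of pig 2, and in 28.2% and 12.9% in pig 3. Without thinning its shares were 30.2% and 11.5% in pig 2 and 31.3% and 20.8% in pig 3. The thinned share of CD8A or CD8B was 17.7% and 3.36% in pig 2 and 19.7% and 6.72% in pig 3, against 30.2% and 23.1% and then 37.7% and 35.8% without thinning. In other cells the thinned CD8 share was 0.0975% in pig 2 and 0.592% in pig 3. CTLA4 hardly differed, at 3.95% below and 3.28% above the minimum in pig 3.

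**Figure D3:**
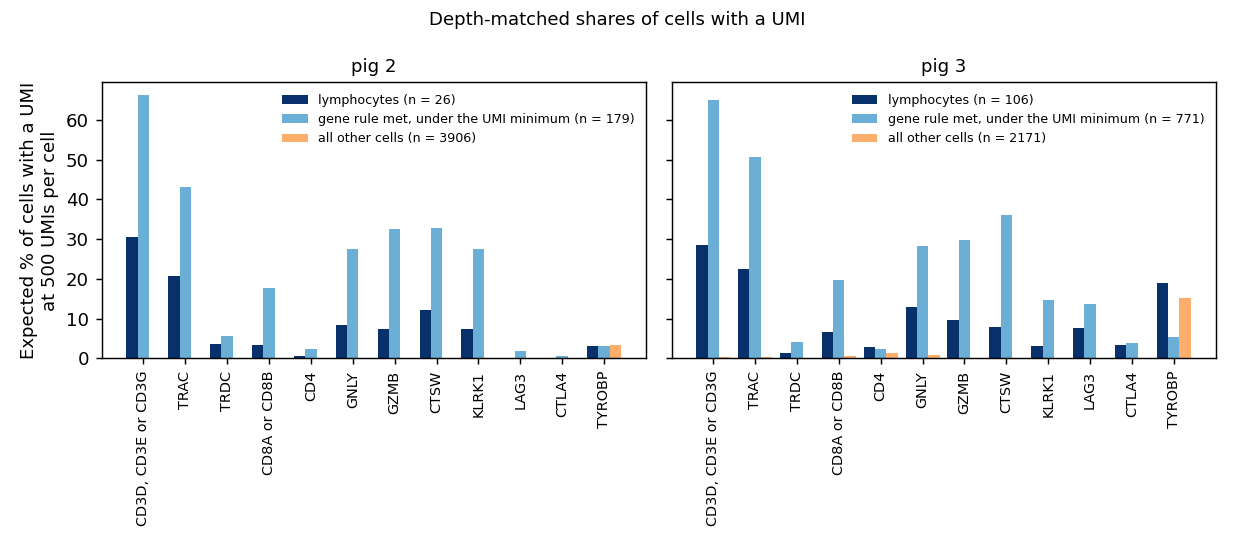
Expected percent of barcodes with a UMI of each gene when every barcode is thinned to 500 UMIs, in pig 2 (left) and pig 3 (right), for lymphocytes (dark blue), barcodes that met the gene rule under the UMI minimum (light blue) and all other cells (orange). The CD3 genes belong to the rule, and GNLY and CD8, outside it, are seen in more of the shallow barcodes, where the rule still acts, and TYROBP in fewer of them in pig 3.

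Genes of other cell types mostly went the other way. In pig 3 the macrophage list outside the rule stood at 1305 CPM above the minimum and 153 CPM below it, LYZ at 798 and 30.8 CPM, JCHAIN at 910 and 76.2 CPM and the division list at 1704 and 710 CPM. The stroma list stood at 2542 CPM above and 1522 CPM below in pig 3, and at 1588 and 1161 CPM in pig 2. Thinned to 500 UMIs, a stroma gene would be seen in 31.1% of the lymphocytes and 16.0% of the shallow barcodes of pig 3, against 24.6% of its other cells. Leydig and red cell genes in both pigs, and Sertoli genes in pig 3, were exceptions, although the red cell list in pig 2 rested on 0 UMIs above and 3 UMIs below the minimum. INSL3 stood at 170 CPM above and 752 CPM below in pig 2, and at 230 and 759 CPM in pig 3. HBB, the beta chain of haemoglobin, stood at 540 CPM above and 2169 CPM below in pig 3. The Sertoli list outside the rule stood at 49.2 CPM above and 121 CPM below in pig 3. Germ cell genes, at 239 CPM above and 147 CPM below in pig 3, would be seen after thinning in 5.22% of its lymphocytes and 8.06% of its shallow barcodes. Of the 955 shallow barcodes, 161 (16.9%) held UMIs in at least 2 genes of another type, against 77.7% of the lymphocytes, a comparison in which depth differs.

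**Figure D4:**
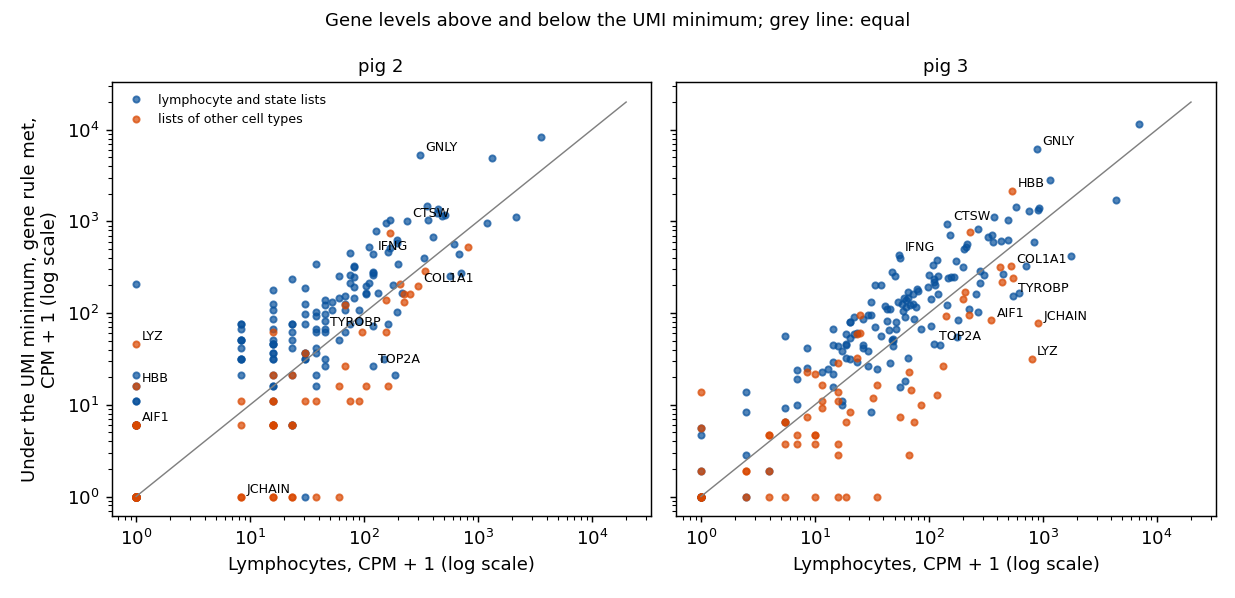
Level of each listed gene outside the rule, as CPM plus 1 on log scales, in lymphocytes (x axis) against barcodes that met the gene rule under the UMI minimum (y axis) of pig 2 and pig 3, with genes of the lymphocyte and state lists in blue and genes of other cell types in orange. GNLY, CTSW and IFNG lie above the grey line of equal levels, and LYZ and JCHAIN lie below it in pig 3.

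The same rule with its own minimum found 1791 lymphocytes among 18509 cattle cells, which addresses how the species compare. The cattle shares were 6.25%, 9.44% and 11.97%, with a mean of 9.22% ± 2.86 (SD, n = 3), against 0.216%, 0.661% and 4.66% in the pigs. No pig reached the lowest of the cattle, and the difference of the means was -7.38 percentage points. A two-sided exact permutation test gave p = 0.1, the smallest that 3 animals against 3 allow. With a minimum of 500 UMIs the pig shares were 0.193%, 0.894% and 9.96% and the cattle shares 5.78%, 9.42% and 9.90%, the difference was -4.69 points (exact permutation p = 0.4), and pig 3 lay above all 3 cattle. The order of the species therefore held for pigs 1 and 2 and depended on the minimum for pig 3. Species, age, breed and gene annotation cannot be told apart in this comparison.

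UMIs of lymphocytes were summed per animal and compared over the genes whose symbol occurs once in both gene tables. Of 8698 genes tested with the edgeR quasi-likelihood test, 1939 (22.3%) were higher and 1838 (21.1%) lower in pig at an adjusted p under 0.05, and 4384 had an unadjusted p under 0.05. Scaled by library size alone the counts were 3249 and 951, and the median log2 fold change moved from -0.16 to 0.72. DESeq2 called 730 and 492. Without pig 3, which holds most of the pig UMIs, 586 and 810 were called.

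Most genes with the largest changes had no UMI in the lymphocytes of the other species. Of the 10 named genes higher in pig, 9 had no UMI in the lymphocytes of any of the cattle, and 3 of the 9 had at most 10 UMIs in all other cattle cells, where each had some. SNRPE, a core protein of the spliceosome, had 6, 40 and 305 UMIs in the pigs, a log2 fold change of 10.63 ± 0.88 (SE, edgeR adjusted p = 1.35e-30), and 30 UMIs in the other cattle cells. It was at least 636-fold higher, against a floor of 3 counts over the cattle sums. HSD11B1L, a dehydrogenase-like gene, had 2974 UMIs in the pigs and 35 in the cattle, and the others were C15orf62, FBXO39, ELAVL2, DMAC2, DNASE1L1, ENTPD6, RAB21 and FAM174A. All 10 named genes lower in pig had no UMI in the lymphocytes of any pig. Among them FTH1, the ferritin heavy chain, was at least 1008-fold lower and RPL36, a ribosomal protein, at least 861-fold, and PTGDS, NDUFA4, HNRNPF, HMGN1, RBM3, ICAM3 and GNG5 were others. These 10 genes also had at most 10 UMIs each in all other pig cells, 5 of them none. None of the 20 was called when lymphocytes were read relative to the other cells of the same animal. The fitted log2 differences there ran from 0.21 (HSD11B1L) to 5.69 (RAB21) for the 10 genes higher in pig and from -4.95 (ICAM3) to 0.21 (GNG5) for the 10 lower, so a missing call does not show that the species were alike. How far the gene tables of the species set the calls of the direct comparison was not tested.

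The ratio of lymphocytes to other cells of the same animal was compared between the species in an edgeR interaction over 12 sums. Of 12789 genes, 239 (1.87%) had a larger and 951 (7.44%) a smaller ratio in pig, at an adjusted p under 0.05, with a median of -0.37 on the log2 scale over all genes. Within the lists 21 genes were called larger and 44 smaller, among them CD3E and CD3G (larger) and C1QA and C1QC (smaller), 4 rule genes whose values chose the cells and from which nothing is read. In the ratios of single animals, with 10 CPM added, all pigs lay apart from all cattle for 7 of the 21 and 17 of the 44, and pigs 2 and 3 lay apart from all cattle for 15 and 21. Over all called genes, all pigs lay apart for 32.6% of the 239 larger and 53.3% of the 951 smaller, and pigs 2 and 3 for 74.5% and 65.3%, so nothing particular to the lists is read from these counts. For genes of low level the added CPM and the fit can differ, so ratios of single animals are given beside the genes described next.

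Most leukocyte genes were called smaller in pig relative to other cells. Of 13 genes 11 were called smaller, against 7.44% of all genes, and the median of the 13 was -1.85, against -0.37 over all genes. CD52 had log2 ratios of 3.64, 4.13 and 2.40 in pigs 1, 2 and 3 and 4.67, 5.08 and 4.96 in cattle, an interaction of -2.36. CD37, a tetraspanin of leukocytes, had ratios of 2.52, 1.25 and 0.57 against 3.62, 3.99 and 3.75, an interaction of -4.06. CD53, another tetraspanin, had ratios of 2.01, 2.24 and 1.93 against 3.23, 3.53 and 3.54, an interaction of -2.34. For the other 8 called genes the animals overlapped, and for some of them single pigs lay as high as the cattle or higher. ARHGAP15 had ratios of 3.71, 1.98 and 1.75 against 1.76, 1.17 and 1.51, although its interaction was -1.85, and CYTIP, a regulator of leukocyte adhesion, 2.97, 2.67 and 2.16 against 2.03, 2.18 and 2.12 (interaction -1.87).

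Among T and NK genes both directions were met, and more genes were called smaller in pig in all lists but that of checkpoints. Of 21 T cell receptor genes 3 were called larger, CD3E and CD3G of the rule among them, and 5 smaller. Of 10 NK genes 2 were called larger and 3 smaller, of 17 transcription factors 1 and 6, and of 15 trafficking genes 0 and 6. Over all genes 1.87% were called larger and 7.44% smaller. CD8B had log2 ratios of -0.97, 0.75 and 1.24 in the pigs and 3.70, 4.06 and 3.76 in cattle (interaction -3.25), while CD8A, with 3.65 to 3.99 in the pigs and 3.63 to 4.50 in cattle, was not called. The adaptor FCER1G had ratios of -0.40, -1.31 and 0.80 against 2.94, 3.56 and 2.95 (interaction -3.47), and the transcription factor ID2 -2.76, 0.83 and 1.67 against 2.85, 2.94 and 2.98 (interaction -2.35). IL2RB had ratios of 4.09, 2.88 and 3.13 against -0.24, 0.81 and 0.73 (interaction 1.97). PDCD1 had ratios of 0.00, 1.68 and 3.505 against -1.70, -0.59 and -0.70 (interaction 6.79), where pig 1 held no UMI. CD5 had 4.37 and 3.51 in pigs 2 and 3, against 0.57 to 0.90 in cattle, and -0.32 in pig 1, which held none (interaction 2.79). Of the 11 cytotoxic genes tested outside the rule, SRGN and XCL1 were called, both smaller in pig. SRGN, a proteoglycan of secretory granules, had ratios of 2.97, 2.31 and 2.06 against 2.55, 2.65 and 3.04 (interaction -1.29). XCL1 had -1.26, 3.70 and 2.24 against 1.79, 2.29 and 3.16 (interaction -2.12), so pig 2 lay above all the cattle. GZMK, CTSW and CD8A, which the direct comparison had called higher, lower and lower in pig, were not called here. GZMK had ratios of 3.70, 4.09 and 2.72 against 2.05, 0.43 and 0.73 and an interaction of -0.56, of the other sign, and CTSW had 4.35, 4.68 and 3.90 against 4.34, 5.34 and 5.01 (interaction 0.044).

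Of the lists for other cell types, those of macrophages and stroma held most of the genes with larger ratios in pig. Of the 9 macrophage genes tested outside the rule 6 were called larger and 0 smaller, and of 9 stroma genes 5 were called larger and 0 smaller. The shares over all genes were 1.87% larger and 7.44% smaller, so counts of 0 in these short lists are near the background. In the ratios of single animals all pigs lay apart from all cattle for 1 of the 6 and 0 of the 5. Pigs 2 and 3 lay apart from all cattle for 3 and 5 of them. Of 6 endothelial genes 0 were called larger and 2 smaller. These were VWF, with ratios of -1.12, -0.33 and -2.28 against -0.75, 0.17 and -0.25, and PLVAP, with -2.64, 0.34 and 0.39 against 2.06, 1.75 and 1.55. Of 8 dendritic cell genes 1 was called larger. In the mast cell, red cell, Sertoli, Leydig and germ cell lists 0 genes were called, where the Sertoli and Leydig lists include rule genes. ACTA2, smooth muscle actin, had log2 ratios of -0.26 and 1.17 in pigs 2 and 3 and of -1.82, -1.96 and -2.07 in cattle, while pig 1, with no UMI, lay at -2.76 (interaction 1.88). LYZ had 4.75, -2.65 and 2.30 in pigs 1, 2 and 3 and -0.67, -1.30 and -1.35 in cattle (interaction 3.18), where 7 UMIs in a single cell made up the value of pig 1. CD74 had 2.02, 0.88 and 1.197 against -1.11, -1.96 and -0.90 (interaction 1.77). The B cell gene CD79A, with no UMI in the pig lymphocytes, had ratios of -0.36, -0.011 and -0.28 in the pigs and 3.82 to 4.01 in cattle (interaction -10.92). Calls of smaller ratios for leukocyte genes thus stood beside calls of larger ratios for stroma and macrophage genes, and the part of the latter in the former was not tested.

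**Figure D5:**
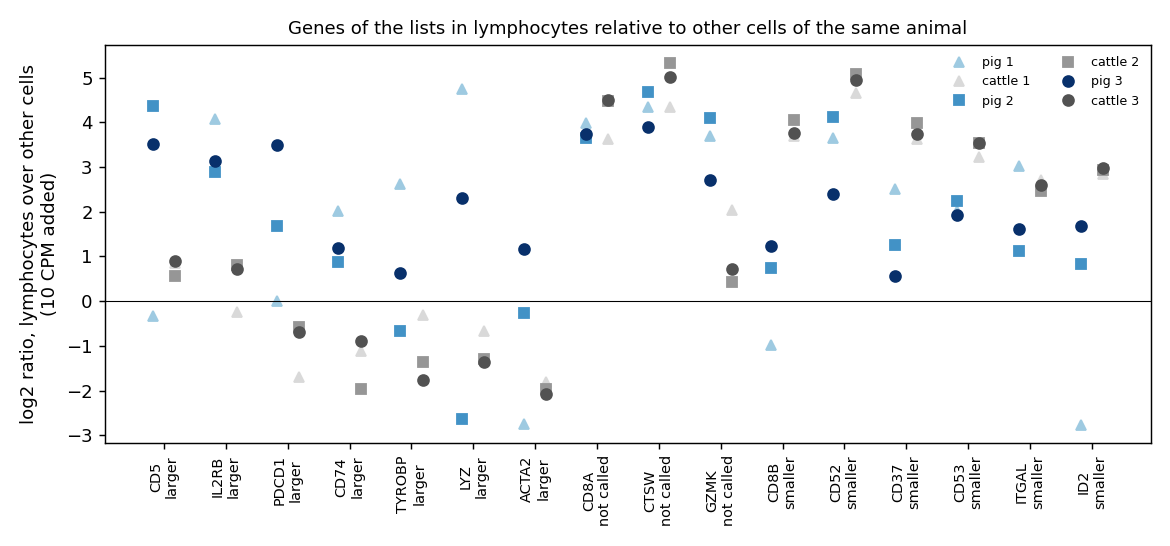
Log2 ratio of lymphocytes over all other cells of the same animal, with 10 CPM added, for 16 listed genes in 3 pigs (blue) and 3 cattle (grey), with the call of the edgeR interaction under each name. CD37, CD52 and CD53 lie lower in every pig than in any of the cattle, and ACTA2 lies higher in pigs 2 and 3 only.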

How the data were processed

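The authors deposited raw counts of UMIs per gene and barcode, made with Cell Ranger 2.1.0 per the methods and the submitters' processing notes, while the header of the pig tables names software 3.0.2. The pig genome build is Sscrofa11.1, and gene positions come from its RefSeq annotation. The pig tables hold barcodes with at least 500 UMIs (6245189, 40099873 and 33500750 UMIs in pigs 1, 2 and 3) and the cattle tables every barcode (5805223, 27409347 and 53325608). No column of another series was met (0 columns).

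Cells were barcodes at or above the minimum of Cell Ranger 2, the 99th percentile of the 3000 largest totals divided by 10. This left 9457 pig cells of 37948 barcodes. The approximate number of pig cells that the study states lies between these counts, and the deposited barcodes that made it up are not named in the files. Scrublet, run in scanpy 1.11.5, gave doublet scores, and cells were removed by them only in an alternative (the top 0.8% for every 1000 cells), since its automatic threshold marked 159, 1 and 10 pig cells.

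UMIs were summed per animal. Levels are CPM, and folds against the other cells of the same pig add 10 CPM to both sides, for genes with at least 10 UMIs over the pooled members, in pigs with at least 10 members. Exact binomial intervals are Clopper-Pearson at 95%. Shares of cells at equal depth are expected values for barcodes thinned to 500 UMIs. Species were compared over 13961 shared symbols with edgeR 4.0.16 (quasi-likelihood, TMM, at least 10 UMIs over the sums, Benjamini-Hochberg 0.05), with DESeq2 1.42.0 as an alternative, in R 4.3.3, and shares with a two-sided exact permutation test. The p-values measure the spread between animals. On simulated counts for the species comparison (8390 genes) edgeR recovered 41% of 4-fold and 69.1% of 8-fold changes with 2.70% false calls. For the ratio to other cells (12723 genes) it recovered 35.4% and 50.5% with 4.49% false calls. The simulations changed 197 and 198 of the tested genes, up and down alike, on profiles common to both species. They did not model genes that the gene table of a single species hardly counts. Their false calls thus set no bound for the 1939 and 1838 calls of the direct comparison. Python 3.11.15, numpy 2.4.6, scipy 1.17.1, pandas 2.3.3 and matplotlib 3.10.9 were used.

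The members and the 22 gene lists were chosen with earlier results of these data known. Lists covered T cell receptor signalling, CD4, CD8 and gamma delta lineage, cytotoxic effectors, NK receptors, transcription factors, trafficking, residency, checkpoints, leukocyte genes, antigen presentation, immediate early genes, cell division and 10 other cell types (B, macrophage, dendritic, mast, erythroid, Sertoli, Leydig, germ, stroma and endothelial cells). Named genes are list genes, the 20 with the highest and the 10 with the lowest folds against other cells, and the 10 highest and 10 lowest in pig against cattle whose groups did not overlap. Alternatives changed the minimum, the rule, doublets, scaling, the added CPM, the filter, the tool, the reference cells and each animal. Some genes that these rules and lists include are not reported here.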

Additional observations from a re-analysis of the deposited data

Results flagged for a closer look

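Barcodes under the UMI minimum, which the comparisons of cells leave out, held a lymphocyte signal. Of 28491 such barcodes 955 met the gene rule, against 139 cells above the minimum, with 771 of them in pig 3. What share of the 955 are whole cells was not tested.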

How the results depend on the processing

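The pig share of lymphocytes lay between 0.438% and 2.66% when an animal was left out. The difference to cattle then lay between -8.86 and -6.00 percentage points, always below 0. Its exact permutation p cannot fall below 0.2 with 2 animals in a group. When any drop gene removed a cell, the pig mean was 0.836%, the cattle mean 4.97% and the difference -4.13 points. With a minimum of 500 UMIs the pig mean was 3.68% and the difference -4.69 points. The number of genes at least 2-fold higher than in other pig cells, 237 over 2 pigs, became 127 with 2 UMIs over 2 genes, where 3 pigs had to pass, and 363 with 1 CPM added, over 2 pigs. Over 1 pig it was 434 when any drop gene removed a cell, 420 without cells that held 2 genes of another type (chosen after seeing the data), and 188 to 424 without pig 3 and without pig 2. All but the 363 thus changed the number of pigs as well as the setting. Of the species comparison, 977 genes were higher and 807 lower when any drop gene removed a cell, 730 and 492 with DESeq2, 3249 and 951 by library size alone, and 239 and 951 relative to other cells of the same animal. With an animal left out the counts ranged from 586 to 2158 and from 810 to 1990. Without pig 1 1182 genes were lower, without cattle 2 874 and without cattle 3 975, and 1271 were higher without cattle 3. For single genes 526 values over all settings kept direction and call, 26 lost the call and 4 turned sign. In the setting relative to other cells of the same animal 9 values kept both and 20 lost the call. All 4 that turned sign did so there (GNG5 0.21, GZMK -0.56, CTSW 0.044 and CD8A 0.45, log2). PDCD1, higher in pig, lost its call with DESeq2 (adjusted p = 0.143) and without pig 3 (edgeR adjusted p = 0.947). The causes were not tested.

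With the testis number as a replicate block 1917 genes were higher and 1957 lower in pig, and the block moved neither count by over 1.5 times. The number is a label shared across species and pairs no animals. Depth limits pig 1, whose 9794 lymphocyte UMIs leave most single genes uncounted.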
